A study of Homo sapiens with 12 samples.

Results

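The 10 genes described here are the Notch receptors NOTCH1, NOTCH2, NOTCH3 and NOTCH4, the ligands JAG1, JAG2 and DLL1, and the target genes HES1, HEY1 and NRARP. They were taken by gene symbol from the raw gene counts, and each symbol matched a single row of the 45478 genes in the table. mRNA was sequenced from cultured human clear cell renal cell carcinoma (ccRCC) lines in 4 groups of 3 replicate libraries. The groups were the established lines 786-O and A498 as parental cells, and a sunitinib-resistant line from each, called resistant 786-O and resistant A498 here. Sunitinib inhibits receptor tyrosine kinases, and resistance was selected over 4 months or more than 20 passages in 4 µM of it for 786-O and 2 µM for A498. All 4 groups were labelled as not treated when they were collected. Each resistant line is 1 selected culture. Whether the replicates of a group were separate cultures is not stated, so p-values measure the spread between these libraries only. The batch labels follow the groups exactly, and batch and group cannot be told apart. In such bulk samples, fewer cells expressing a gene and less RNA of it per cell cannot be told apart either.

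Notch receptors are single-pass membrane proteins that are activated by ligands of the Jagged and Delta families on neighbouring cells. Ligand binding exposes the receptor to cleavage by ADAM proteases and then by gamma-secretase, and the released intracellular domain enters the nucleus, where it joins the DNA-binding protein RBPJ and a Mastermind coactivator to switch on genes such as the HES and HEY repressors and NRARP, a feedback inhibitor. In kidney, Notch signalling is known for its part in nephron patterning, and JAG1 and NOTCH1 have been studied in ccRCC.

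Several facts about the libraries bear on all results. By overall expression, the libraries labelled as resistant A498 resembled both kinds of 786-O library more than parental A498. Their median Pearson correlation of log2 expression across 19929 genes was 0.882 with parental A498, 0.955 with parental 786-O and 0.984 with resistant 786-O, against 0.879 between the parental lines. Resistant A498 is therefore compared with parental 786-O as well as with parental A498. Replicates of resistant 786-O were further apart than those of other groups, with a median coefficient of variation of 7.87% against 2.7% to 3.78%, and its replicate 2 stands apart from replicates 1 and 3. Total counts were 20042519 to 47972092 per library. Of 10 renal carcinoma markers, 8 or 9 reached a mean of 1 CPM (counts scaled to the normalized size of the library) in each group. CA9, a hypoxia-inducible marker, had a mean of 1.29 CPM in parental A498 and at most 0.0175 CPM in the other groups. Summed markers of other cell types were 1.18 to 4.72 CPM for 10 endothelial genes and 0 to 0.612 CPM for 7 T cell genes. The 6 fibroblast genes summed to 7.09 to 11.7 CPM in the 786-O libraries, parental and resistant, 51.1 to 62.9 CPM in parental A498 and 25.6 to 27.8 CPM in resistant A498, and their part in the results was not tested.

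The stretches upstream of HES1 and NRARP are shown because these target genes gave the largest changes among the targets, HES1 in the libraries labelled resistant A498 and NRARP in resistant 786-O. Capitals mark GTGNGAA, the core letters of the site that RBPJ recognises, searched on both strands. Each run is the 150 bases before the RefSeq transcription start (GRCh38.p14), written in the direction of the gene: HES1 at chr3:194135998-194136147 on the plus strand and NRARP at chr9:137302272-137302421 on the minus strand.
HES1: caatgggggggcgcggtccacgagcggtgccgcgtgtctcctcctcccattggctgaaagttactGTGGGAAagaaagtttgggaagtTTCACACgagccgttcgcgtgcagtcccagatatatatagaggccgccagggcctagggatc
NRARP: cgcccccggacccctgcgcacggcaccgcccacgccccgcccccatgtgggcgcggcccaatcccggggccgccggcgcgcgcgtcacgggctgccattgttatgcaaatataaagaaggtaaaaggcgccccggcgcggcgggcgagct
In HES1, GTGGGAA lay 85 to 79 bases before the start on the strand of the gene, and GTGTGAA lay 62 to 56 bases before it on the opposite strand. Across the 250 bases upstream of 35116 RefSeq starts, 11.6% held at least 1 match and 0.91% held 2 or more. Of the 8 Notch genes in the RefSeq table, HES1 was the only one with a match, and DLL1 and HEY1 were not in it. A match is a description of letters and not a measured binding site.

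In resistant 786-O, the 4 receptors, JAG1 and JAG2 were higher than in the parental line, and of the target genes NRARP rose while HES1 and HEY1 did not pass the test. Of the 10 genes, 9 passed the filter on low counts (all but DLL1), and of these 7 were called higher and 0 lower. Called means an adjusted p under 0.05 from edgeR (quasi-likelihood test, Benjamini-Hochberg adjustment over the 19929 genes tested). Over all genes tested, 68.5% were called in this comparison, 35.0% as higher and 33.5% as lower. With each library's trend with transcript GC content and length removed, 5 members were called higher and 0 lower, JAG1 and NOTCH4 being lost. Of all genes, 32.0% were then called higher and 35.9% lower. For 6 of the 9 genes every resistant library lay above every parental one, as was the case for 34.5% of all genes. A further 34.4% lay below, so that 68.9% did not overlap.

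In the libraries labelled resistant A498, NOTCH1, NOTCH2 and HES1 were higher than in parental A498 and NOTCH3 was lower. NOTCH3 passed the filter on low counts only through the parental A498 libraries, where it was high, so its call as lower is tied to the filter. These 3 higher and 1 lower calls stand against 72.7% of all genes called, 36.3% as higher and 36.4% as lower. With the GC and length trend removed, 4 members were called higher and 2 lower, JAG2 and HEY1 being added. Of all genes, 32.7% were then called higher and 40.5% lower. Libraries did not overlap for 5 of the 9 genes, 4 above and 1 below, against 78.5% of all genes, 39.4% above and 39.1% below. With backgrounds this high a call distinguishes a gene little, and the size of each change is given gene by gene. NOTCH1 and NOTCH2 were called higher in both resistant lines over their labelled parental lines. How many of all genes were called higher in both was not counted. The resistant groups also resembled each other (median correlation 0.984), so the second comparison is no independent repeat of the first.

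**Figure D1:**
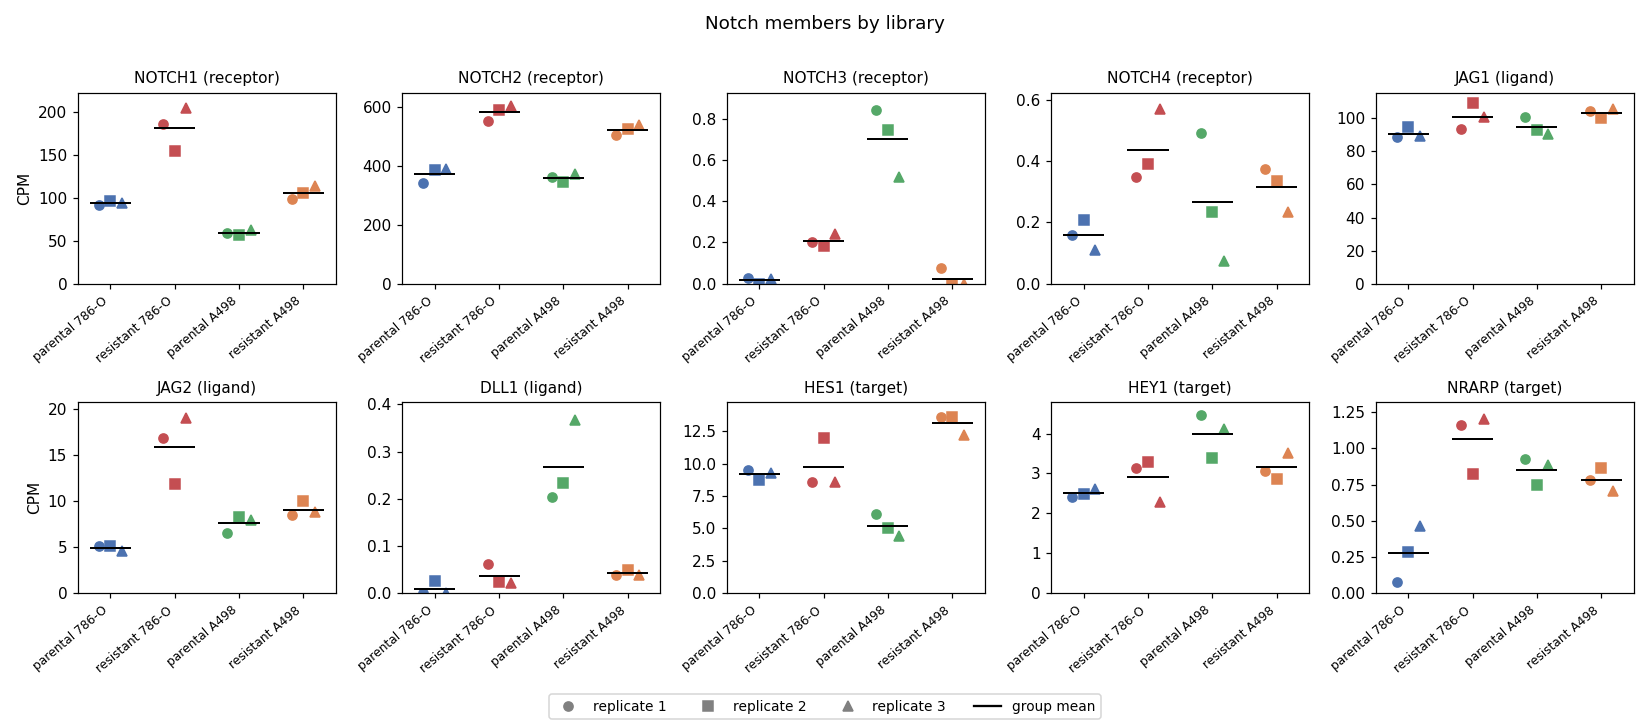
Normalized expression (CPM, vertical axis, each panel with its own scale from 0) of the 10 Notch genes in each of the 12 libraries, by group, with the replicate number as the symbol and the group mean as a line. NOTCH1, NOTCH2 and JAG2 are highest in resistant 786-O, HES1 is highest in the resistant A498 libraries at 12.2 to 13.6 CPM, and NOTCH3 and DLL1 are highest in parental A498 at under 1 CPM.

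NOTCH1 (ENSG00000148400, chromosome 9, 136494433 to 136546048, minus strand) encodes the receptor best known from T cell leukaemia, where it is activated by mutation. Its 3 libraries of parental 786-O had 92.3, 96.8 and 94.6 CPM, and those of resistant 786-O had 186, 154 and 205 CPM. It was 59.2, 57.1 and 62.4 CPM in parental A498 and 99.3, 105 and 114 CPM in resistant A498. Neither resistant group overlapped its labelled parental group, and resistant 786-O replicate 2 was the lowest of its group. NOTCH1 rose by 0.94 on the log2 scale in resistant over parental 786-O (SE 0.08, edgeR adjusted p = 9.3e-08) and by 0.83 in resistant over parental A498 (SE 0.08, edgeR adjusted p = 3.6e-07). When the trend of each library with transcript GC content and length was removed, the change in resistant 786-O was 0.31 (edgeR adjusted p = 2.9e-05), and that in resistant A498 was 0.86. Against parental 786-O, the resistant A498 libraries were higher by 0.16 (edgeR adjusted p = 0.094) without that removal and lower with it, at -0.22 (edgeR adjusted p = 0.00063), so that no direction is given. The value of 0.16 passed the threshold with scaling by library size alone (0.32, edgeR adjusted p = 0.0045) and without resistant 786-O replicate 2 (0.16, edgeR adjusted p = 0.0016), resistant 786-O replicate 3 (0.19, edgeR adjusted p = 0.021) or resistant A498 replicate 1 (0.23, edgeR adjusted p = 0.042). In the order of levels, resistant 786-O stood above resistant A498, resistant A498 came next with libraries that did not overlap those of parental 786-O although the difference did not pass the test, and parental A498 was lowest.

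NOTCH2 (ENSG00000134250, chromosome 1, 119911553 to 120100779, minus strand), the receptor needed for proximal nephron formation, was the most abundant Notch receptor in every library. Its level was 341, 387 and 391 CPM in parental 786-O and 554, 590 and 605 CPM in resistant 786-O. It was 361, 345 and 373 CPM in parental A498 and 505, 526.5 and 539 CPM in resistant A498. All 6 resistant libraries lay above all 6 parental ones. How many of all genes show this pattern was not counted, so it does not set NOTCH2 apart. The change was 0.64 in resistant over parental 786-O (SE 0.06, edgeR adjusted p = 1.1e-07), 0.54 in resistant over parental A498 (SE 0.06, edgeR adjusted p = 5.2e-07) and 0.49 in resistant A498 over parental 786-O (SE 0.06, edgeR adjusted p = 2.5e-06). With the trend with GC content and length removed, these changes were smaller, at 0.37, 0.33 and 0.19, and each stayed past the threshold. The order of levels was resistant 786-O, resistant A498 and then the parental lines, whose libraries overlapped and whose difference did not pass the test (0.05, 95% interval -0.07 to 0.18, edgeR adjusted p = 0.4), although with the trend removed parental 786-O was higher by 0.14 (edgeR adjusted p = 0.018). The near-identical human-specific NOTCH2NL genes could take reads of NOTCH2, and the 4 of them in the table held 6 to 47 counts per library, 0.134% of the NOTCH2 counts.

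NOTCH3 (ENSG00000074181, chromosome 19, 15159038 to 15200995, minus strand), a receptor of vascular smooth muscle and pericytes, was near the detection limit everywhere. It had 1, 0 and 1 counts in parental 786-O and 10, 8 and 11 in resistant 786-O. It had 29, 16 and 14 counts in parental A498 and 2, 0 and 0 in resistant A498. Parental 786-O and resistant A498 were thus at the floor, and parental A498 and resistant 786-O were above it in every library. The ratio of normalized counts of resistant over parental 786-O was 12.8 (95% exact interval 3.23 to 110), and that of parental A498 over resistant A498 was 26.0 (6.88 to 220). These intervals cover counting error only. By edgeR, NOTCH3 was called higher in resistant 786-O (adjusted p = 5e-04) and lower in resistant A498 than in parental A498 (adjusted p = 9.6e-06). Only parental A498 carried NOTCH3 past the filter on low counts, so calls of lower against that group are tied to the filter. Parental A498 was above resistant 786-O by a ratio of 3.38 (2.13 to 5.47).

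NOTCH4 (ENSG00000204301, chromosome 6, 32194843 to 32224067, minus strand), a receptor mainly of endothelium, was as rare. Its counts were 6, 8 and 5 in parental 786-O, 17, 17 and 26 in resistant 786-O, 17, 5 and 2 in parental A498 and 10, 7 and 6 in resistant A498. The resistant 786-O libraries were above those of parental 786-O, while the parental A498 libraries were spread from 2 to 17 counts and overlapped those of resistant A498. NOTCH4 was higher by 1.45 in resistant over parental 786-O (SE 0.45, edgeR adjusted p = 0.01). This call was lost without parental 786-O replicate 3 (1.23, edgeR adjusted p = 0.053) and with the trend with GC content and length removed (0.97, edgeR adjusted p = 0.076). The resistant A498 libraries differed from parental A498 by 0.14 (95% interval -0.96 to 1.25), and by -0.29 without parental A498 replicate 3 and 1.10 without parental A498 replicate 1. Between neighbours in the order of NOTCH4 levels no difference passed the test. The gene GPSM3 overlaps NOTCH4 on the same strand and had 22 to 146 counts, so reads shared between them are uncertain. Endothelial markers, of the cell type NOTCH4 is best known from, summed to 1.18 to 1.58 CPM in parental 786-O and 1.9 to 2.32 CPM in resistant 786-O, with 0 and 1 of 10 at a mean of 1 CPM, and their part in the result was not tested.

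Per length of exon, NOTCH2 and NOTCH1 made up almost the whole receptor pool. Summed receptor expression was 29.9 RPKM (CPM per kb of exon) in parental 786-O and 49.4 in resistant 786-O, and 26.3 in parental A498 and 39.8 in resistant A498. NOTCH2 made up 74.6% ± 1.11 of the pool in parental 786-O (SD, n = 3), 70.6% ± 2.97 in resistant 786-O, 81.6% ± 0.03 in parental A498 and 78.6% ± 0.60 in resistant A498. The share of NOTCH1 was 25.3% ± 1.1, 29.3% ± 2.96, 18.1% ± 0.18 and 21.3% ± 0.63 in the same order. NOTCH3 and NOTCH4 together stayed under 1% in every library. The NOTCH1 share was lowest in parental A498, where its 3 libraries lay at 17.9% to 18.2%, and the resistant 786-O libraries overlapped those of parental 786-O at 25.9% to 31.1% against 24.4% to 26.5%. RPKM shares here rest on gene models and counts that were not corrected for GC content.

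**Figure D2:**
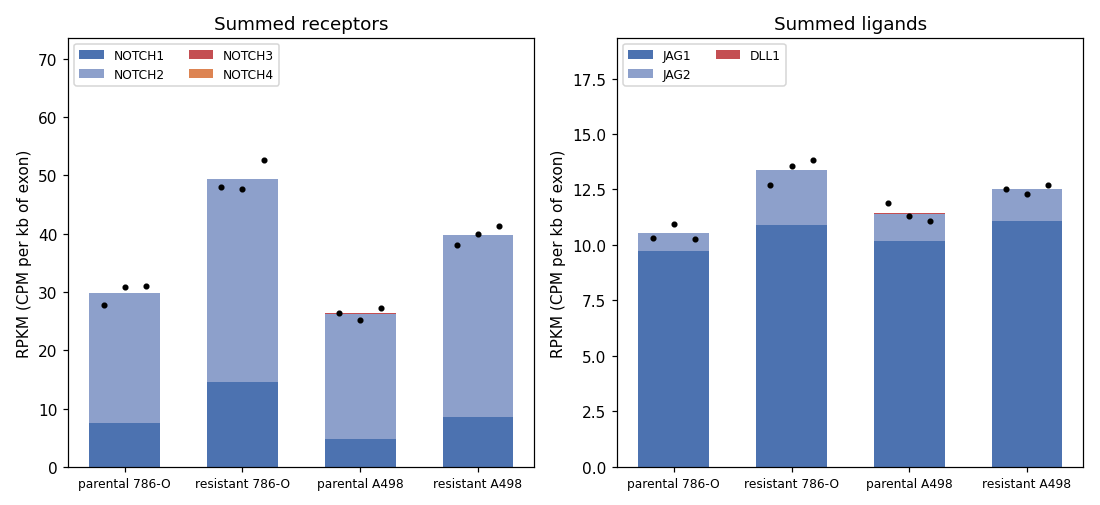
Summed expression of the 4 receptors (left) and the 3 ligands (right) in RPKM (CPM per kb of exon), as stacked group means with each library's sum as a point, both axes from 0. The receptor bars rise from 29.9 in parental 786-O to 49.4 in resistant 786-O and from 26.3 in parental A498 to 39.8 in resistant A498, with NOTCH2 as the larger part, and the ligand bars lie between 10.5 and 13.4 with JAG1 as the larger part.

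Among the ligands, JAG1 was abundant and nearly level over the 4 groups, JAG2 was low and rose most in resistant 786-O, and DLL1 was close to absent outside parental A498. JAG1 (ENSG00000101384, chromosome 20, 10637684 to 10673999, minus strand), the ligand mutated in Alagille syndrome, had 88.6, 94.4 and 89.0 CPM in parental 786-O and 93.3, 109 and 101 CPM in resistant 786-O. It had 101, 92.6 and 90.7 CPM in parental A498 and 104, 99.8 and 105 CPM in resistant A498. Libraries of parental 786-O and resistant 786-O overlapped, as did those of parental A498 and resistant A498. The change of 0.15 in resistant over parental 786-O was called (SE 0.06, edgeR adjusted p = 0.031), with a bound of at most 0.28 on its 95% interval. The call was lost without resistant 786-O replicate 2 (0.09, edgeR adjusted p = 0.061), without parental 786-O replicate 1 (0.13, edgeR adjusted p = 0.11) and without parental 786-O replicate 3 (0.14, edgeR adjusted p = 0.1). It was 0.23 without resistant 786-O replicate 1 and fell to 0.00 with the GC and length trend removed (edgeR adjusted p = 0.97). For resistant over parental A498, JAG1 differed by 0.12 (95% interval -0.005 to 0.252, edgeR adjusted p = 0.078). Leaving out any of 5 libraries (resistant 786-O replicates 1 to 3, parental A498 replicate 1, resistant A498 replicate 2) brought this to 0.13 to 0.18 and past the threshold. Over parental 786-O, the resistant A498 libraries were higher by 0.19 (edgeR adjusted p = 0.013), which was 0.01 with the trend removed (edgeR adjusted p = 0.92) and was past the threshold neither without parental 786-O replicate 1 (0.17, edgeR adjusted p = 0.054) nor without parental 786-O replicate 3 (0.17, edgeR adjusted p = 0.053). Between neighbours in the order of JAG1 levels no difference passed the test. An antisense gene in the JAG1 locus held 87 to 290 counts, 4.85% of the JAG1 counts, and reads of the pair are told apart only by strand.

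JAG2 (ENSG00000184916, chromosome 14, 105140982 to 105168824, minus strand), a ligand known from limb and thymus development, gave the larger change of the 2 ligands tested. It had 5.10, 5.07 and 4.57 CPM in parental 786-O and 16.9, 11.8 and 19.1 CPM in resistant 786-O. It had 6.51, 8.28 and 7.98 CPM in parental A498 and 8.46, 10.0 and 8.76 CPM in resistant A498. The resistant 786-O libraries were above all others, replicate 2 being the lowest of them, and those of resistant A498 lay just above those of parental A498. Parental 786-O was lowest, and resistant and parental A498 were the only neighbours in the order whose difference did not pass the test, although their libraries did not overlap. JAG2 rose by 1.70 in resistant over parental 786-O (SE 0.15, edgeR adjusted p = 1.2e-07), and by 1.12 with the GC and length trend removed (edgeR adjusted p = 1.5e-06). In resistant A498 it differed from parental A498 by 0.26 (95% interval -0.08 to 0.61, edgeR adjusted p = 0.15), and was past the threshold without resistant 786-O replicate 2 (0.28, edgeR adjusted p = 0.012) and with the trend removed (0.36, edgeR adjusted p = 0.024). Over parental 786-O it was higher in resistant A498 by 0.88 (SE 0.16, edgeR adjusted p = 0.00021), and by 0.57 with the trend removed. The changes with resistance in both lines differed by -1.44 (resistant over parental A498 minus resistant over parental 786-O, SE 0.22, edgeR adjusted p = 3.5e-05), or by -0.76 with the trend removed (edgeR adjusted p = 0.0019).

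Per length, JAG1 made up 92.7% ± 0.39 of the ligand pool in parental 786-O (SD, n = 3), 81.2% ± 4.4 in resistant 786-O, 89.0% ± 1.75 in parental A498 and 88.6% ± 1.19 in resistant A498. The JAG2 share was 7.3% ± 0.39 in parental 786-O and 18.7% ± 4.38 in resistant 786-O, and the libraries of these groups did not overlap (6.95% to 7.72% and 13.6% to 21.6%). In parental A498 and resistant A498 it was 10.4% ± 1.61 and 11.3% ± 1.18, and the libraries overlapped. Pool totals were 10.5 RPKM in parental 786-O, 13.4 in resistant 786-O, 11.4 in parental A498 and 12.5 in resistant A498.

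DLL1 (ENSG00000198719, chromosome 6, 170282206 to 170306565, minus strand), a Delta ligand, did not pass the filter on low counts and was not tested. It had 0, 1 and 0 counts in parental 786-O, 3, 1 and 1 in resistant 786-O, 7, 5 and 10 in parental A498, and 1 in each resistant A498 library. Parental A498 was above the other 3 groups in every library. The ratio of parental A498 over resistant A498 was 6.46 (95% exact interval 1.94 to 33.7) and that of parental A498 over parental 786-O was 32.2 (5.20 to 1328). FAM120B, which overlaps DLL1, held 335 to 1192 counts, so counts as few as these are uncertain.

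The target genes did not move together. HES1 (ENSG00000114315, chromosome 3, 194136148 to 194138732, plus strand), a transcriptional repressor and the classical Notch target, had 9.52, 8.69 and 9.30 CPM in parental 786-O and 8.58, 11.95 and 8.59 CPM in resistant 786-O. It had 6.08, 5.02 and 4.41 CPM in parental A498 and 13.6, 13.6 and 12.2 CPM in resistant A498. Replicate 2 of resistant 786-O lay above the parental 786-O libraries and replicates 1 and 3 below them, whereas resistant A498 lay above all other libraries and parental A498 below all others. For resistant over parental 786-O, HES1 differed by 0.08 (95% interval -0.19 to 0.35, edgeR adjusted p = 0.59), and by -0.10 without resistant 786-O replicate 2. In resistant A498 it was higher by 1.33 than in parental A498 (SE 0.14, edgeR adjusted p = 6.4e-07) and by 0.52 than in parental 786-O (SE 0.13, edgeR adjusted p = 0.0029). Parental 786-O itself was above parental A498 by 0.81 (SE 0.14, edgeR adjusted p = 9.2e-05). Removal of the GC and length trend left these values at 1.35, 0.57 and 0.78. The changes with resistance differed between the labelled lines by 1.25 (SE 0.19, edgeR adjusted p = 3.5e-05). In the order of levels, resistant and parental 786-O were the neighbours whose difference did not pass the test. HES1 is also the gene whose upstream stretch holds GTGNGAA, shown in capitals.

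HEY1 (ENSG00000164683, chromosome 8, 79762371 to 79767857, minus strand), a repressor of the related HEY family, was low in all groups. It had 2.42, 2.48 and 2.62 CPM in parental 786-O and 3.15, 3.28 and 2.27 CPM in resistant 786-O. It had 4.46, 3.39 and 4.12 CPM in parental A498 and 3.06, 2.87 and 3.52 CPM in resistant A498. Replicate 3 of resistant 786-O was under every parental 786-O library while its other replicates were above them. HEY1 differed by 0.21 in resistant over parental 786-O (95% interval -0.11 to 0.53, edgeR adjusted p = 0.23), and of the fits that left out 1 library it was past the threshold in that without resistant 786-O replicate 3 (0.38, edgeR adjusted p = 0.028). In resistant A498 it differed from parental A498 by -0.35 (95% interval -0.69 to -0.01, edgeR adjusted p = 0.059). That value passed the threshold without parental A498 replicate 2 (-0.44, edgeR adjusted p = 0.03), without resistant 786-O replicate 2 (-0.35, edgeR adjusted p = 0.026), without resistant 786-O replicate 3 (-0.32, edgeR adjusted p = 0.044) and with the GC and length trend removed (-0.55, edgeR adjusted p = 0.0052). Parental 786-O was below parental A498 by -0.68 (SE 0.15, edgeR adjusted p = 0.00091), and no difference between neighbours in the order of levels passed the test.

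NRARP (ENSG00000198435, chromosome 9, 137299631 to 137302271, minus strand), which binds the Notch intracellular domain complex and dampens it, lies 753.6 kb from NOTCH1 on the same chromosome. It had 3, 11 and 21 counts in parental 786-O and 57, 36 and 55 in resistant 786-O. It had 32, 16 and 24 counts in parental A498 and 21, 18 and 18 in resistant A498. In CPM, all 9 libraries outside parental 786-O lay between 0.704 and 1.20 and the parental 786-O libraries between 0.0789 and 0.466. NRARP rose by 1.89 in resistant over parental 786-O (SE 0.34, edgeR adjusted p = 0.00017), and by 1.62 with the GC and length trend removed. The ratio of summed normalized counts was 3.72 (95% exact interval 2.56 to 5.54, counting error only). In resistant A498 it differed from parental A498 by -0.14 (95% interval -0.88 to 0.60, edgeR adjusted p = 0.73), and from parental 786-O by 1.44 (SE 0.39, edgeR adjusted p = 0.0047). Parental 786-O was below parental A498 by -1.58 (SE 0.37, edgeR adjusted p = 0.0014), and among the other 3 groups no difference between neighbours in the order passed the test. The changes with resistance differed by -2.03 between the labelled lines (SE 0.49, edgeR adjusted p = 0.0019). An overlapping gene, ENSG00000288234, held 0 to 8 counts per library, 13.8% of the NRARP counts, so reads shared between them are uncertain.

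**Figure D3:**
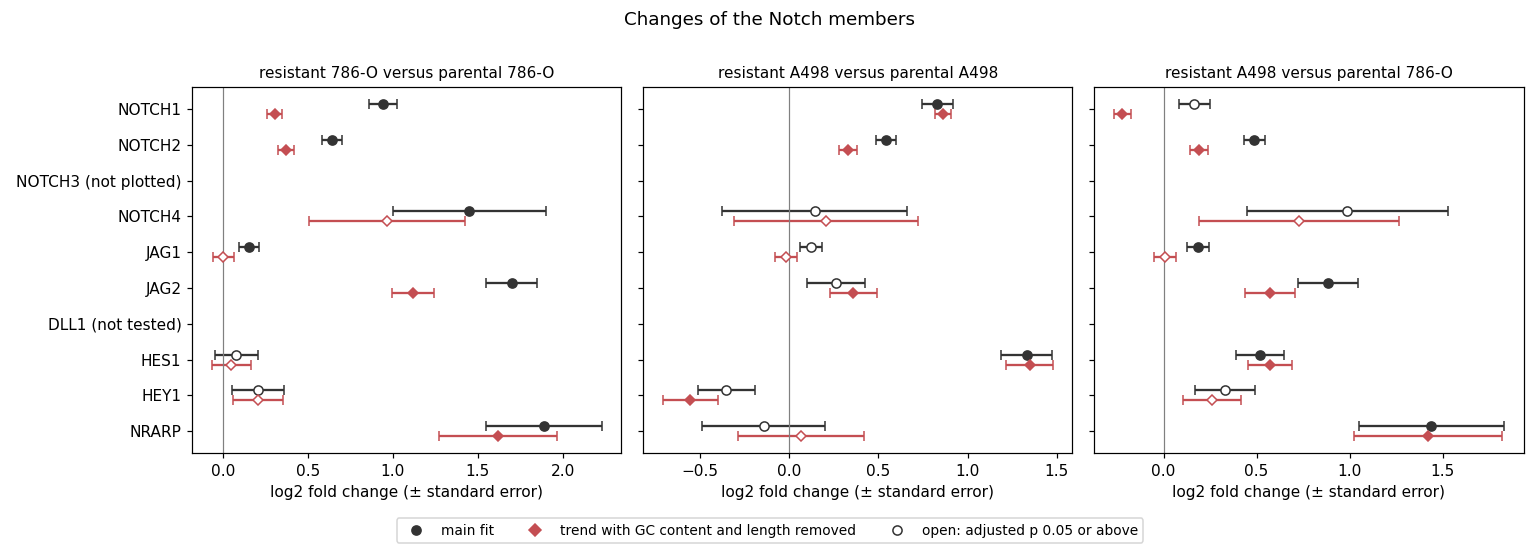
Log2 fold change (horizontal axis, with standard error) of each Notch gene in 3 comparisons, from the main edgeR fit (circles) and with each library's trend with GC content and length removed (diamonds), open where the adjusted p is 0.05 or above. NOTCH3 is not plotted because a compared group had no more than 3 counts, and DLL1 was not tested. NOTCH1 moves from 0.94 to 0.31 in resistant over parental 786-O and from 0.16 to -0.22 in resistant A498 over parental 786-O, while HES1 moves little. NRARP moves from 1.89 to 1.62 in resistant over parental 786-O and from -0.14 to 0.07 in resistant over parental A498.

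The reference group decides which Notch genes stand out in the resistant A498 libraries. Against parental 786-O, 5 of the 10 genes rose and 0 fell (NOTCH2, JAG1, JAG2, HES1 and NRARP), where 63.6% of all genes were called, 31.6% as higher and 32.1% as lower. With the GC and length trend removed 4 rose (NOTCH2, JAG2, HES1 and NRARP) and 1 fell (NOTCH1), where 64.6% of all genes were called, 29.6% as higher and 35.0% as lower. The resistant A498 libraries lay above those of parental 786-O for 8 of the 9 genes tested, against 36.2% of all genes above, 37.2% below and 73.4% in either direction. NOTCH3 and DLL1, which set parental A498 apart from parental 786-O, were in resistant A498 at 0 to 2 counts per library as in parental 786-O. Between the parental lines, parental 786-O was higher than parental A498 in NOTCH1 and HES1 and lower in NOTCH3, JAG2, HEY1 and NRARP, where 74.2% of all genes were called, 38.2% as higher and 36.1% as lower. The JAG2 difference of -0.62 between the parental lines was -0.21 with the GC and length trend removed (edgeR adjusted p = 0.17), and that of NOTCH1 grew from 0.67 to 1.08. Between the resistant groups, NOTCH1 (-0.78), NOTCH2 (-0.16), NOTCH3 and JAG2 (-0.82) were lower and HES1 (0.44) higher in resistant A498 than in resistant 786-O, where 46.1% of all genes were called, 23.0% in each direction. The NOTCH2 call was lost without resistant 786-O replicate 3 (-0.12, edgeR adjusted p = 0.13) and without resistant A498 replicate 1 (-0.12, edgeR adjusted p = 0.16), 2 (-0.15, edgeR adjusted p = 0.097) or 3 (-0.17, edgeR adjusted p = 0.062).

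The changes with resistance were set against each other in the same model. Of the 10 genes, 1 (HES1) had a change that was higher in resistant over parental A498 than in resistant over parental 786-O, and 4 (NOTCH3, JAG2, HEY1 and NRARP) one that was lower, where 68.3% of all genes were called, 33.9% as higher and 34.4% as lower. With the GC and length trend removed 2 were higher, NOTCH1 being added, and the same 4 were lower. Of all genes 67.5% were then called, 32.2% as higher and 35.3% as lower. For NOTCH1 the difference was -0.11 (95% interval -0.36 to 0.14, edgeR adjusted p = 0.41). It was -0.21 without resistant 786-O replicate 2 (edgeR adjusted p = 0.0058) and 0.56 with the GC and length trend removed (edgeR adjusted p = 2.8e-06), so that its sign turned with that removal. For NOTCH2 the difference was -0.10 (95% interval -0.27 to 0.07) and with the trend removed -0.04. For NOTCH4 it was -1.31 (95% interval -2.79 to 0.17), and -1.74 without parental A498 replicate 3 (edgeR adjusted p = 0.019). That of HEY1 (-0.56, edgeR adjusted p = 0.034) was past the threshold by little, and leaving out any of 7 libraries (parental 786-O replicates 1 and 2, resistant 786-O replicate 1, parental A498 replicates 1 and 3, resistant A498 replicates 1 and 2) brought it to -0.46 to -0.54 and adjusted p-values of 0.064 to 0.1. With the GC and length trend removed the HEY1 difference was larger, at -0.76 (edgeR adjusted p = 0.0061).

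The Notch transcripts differed in GC content. Those of JAG2 (64.1% GC), NOTCH1 (63.3%), NOTCH3 (63%), NOTCH4 (61.7%), DLL1 (59.5%) and NRARP (59.2%) were rich in GC, whereas HES1 (50%), JAG1 (49.6%), NOTCH2 (49.4%) and HEY1 (45%) were near the middle of all genes. In resistant over parental 786-O, the median log2 fold change of all genes was -0.33 in the tenth of genes with the lowest GC content and 0.53 in the tenth with the highest. The trend in resistant over parental A498 ran the other way, from 0.20 to -0.24. Genes within 2 percentage points of the GC content of NOTCH1 had a median change of 0.47 in resistant 786-O, those near JAG2 0.49, those near NRARP 0.27 and those near NOTCH2, JAG1 and HES1 0.09. The changes of NOTCH1 (0.94), NOTCH2 (0.64), JAG2 (1.70) and NRARP (1.89) were above these medians, and those of JAG1 (0.15) and HES1 (0.08) were close to them. Those of NOTCH1 and NOTCH2 still lay within the middle 50% of genes of like GC content, and those of JAG2 and NRARP above it. Whether the trend is technical or belongs to the cells was not tested, and it moves with the batch labels.

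**Figure D4:**
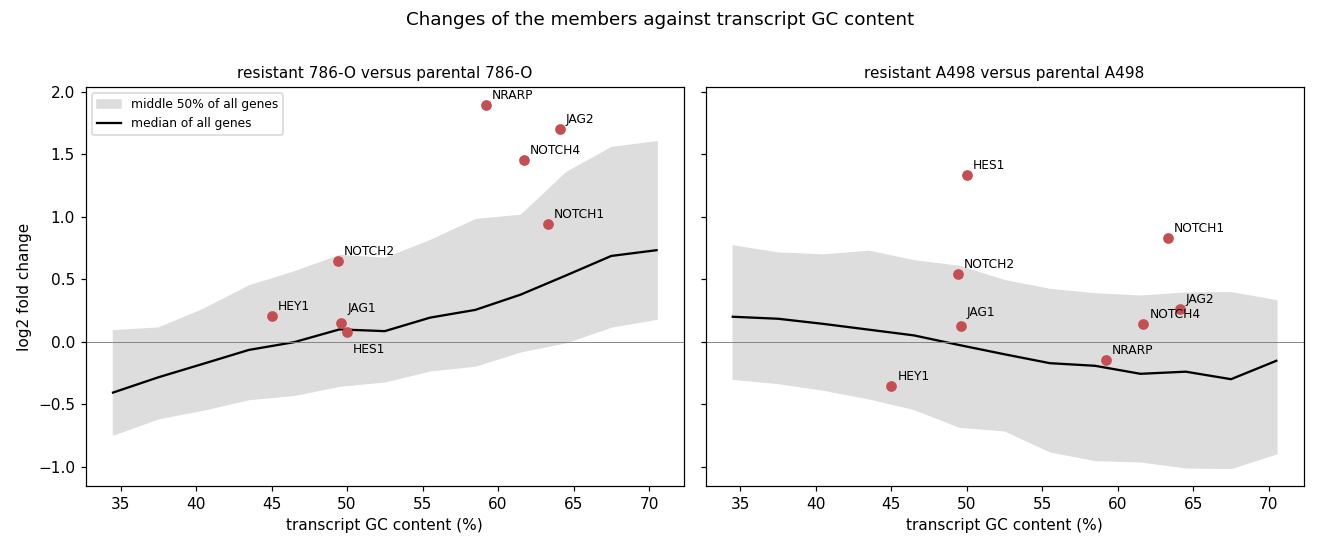
Log2 fold change (vertical axis) against transcript GC content in percent (horizontal axis), with the median of all genes as a line and the middle 50% of genes as a grey band in bins of GC content, and the Notch genes as points, for resistant over parental 786-O (left) and resistant over parental A498 (right). The line climbs with GC content on the left, where NOTCH1 at 63.3% GC and 0.94 lies inside the band and JAG2 at 64.1% and 1.70 above it, and it falls on the right, where NOTCH1 at 0.83 and HES1 at 1.33 lie above the band. NOTCH3 is not plotted and DLL1 was not tested.

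The other genes of the pathway were taken as 60 genes in 9 lists by role, of which 55 passed the filter. In resistant over parental 786-O, 40 of the 55 were called, 23 higher and 17 lower, where 68.5% of all genes were called, 35.0% as higher and 33.5% as lower. Their median was 0.10 against 0.03 over all genes tested. This balance leaned with the scaling. It was 29 higher and 11 lower with library size alone, where 62.5% of the calls over all genes were higher. With the GC and length trend removed it was 19 higher and 22 lower, where 32.0% of all genes were higher and 35.9% lower. In resistant over parental A498, 42 were called, 25 higher and 17 lower, against 72.7% of all genes, 36.3% as higher and 36.4% as lower, with a median of 0.14 against 0.00. With the GC and length trend removed they were 21 higher and 20 lower, against 32.7% and 40.5% of all genes. Against parental 786-O, 40 were called in resistant A498, 24 higher and 16 lower, against 63.6% of all genes, 31.6% as higher and 32.1% as lower. This split was 19 and 19 with the GC and length trend removed, against 29.6% and 35.0% of all genes. It was 29 and 10 with library size alone, where 62.6% of all calls were higher. In a test of each gene's raw counts that was neither adjusted nor scaled to library size it was 6 and 34. The split of all genes in that test was not counted, and library depth enters its values. The same shares over all genes stand behind the counts of each list by role, and lists this short are described and not set apart from them.

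With the GC and length trend removed, the counts by role in resistant 786-O were 1 higher and 3 lower for glycosylation and maturation, 3 and 0 for cleavage, 1 and 5 for sorting and turnover, 2 and 5 for the activation complex, 3 and 6 for corepressors, and 2 and 1 for the ubiquitin ligases. In resistant over parental A498 they were, in the same order, 4 and 0, 2 and 3, 1 and 4, 3 and 4, 5 and 3, and 2 and 1. The counts of the other HES and HEY genes and of the further responsive genes were the same with and without the removal in both comparisons.

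Genes are named by a rule of size within each list, and DLL3, LFNG in parental 786-O, DTX1, RBPJ and HES6 in resistant A498, HES4 in resistant 786-O, HES7, HEY2, HEYL, CD44 in resistant A498 and SNAI2 in parental 786-O were added after their values were seen. Of 4 ubiquitin ligases that act on ligands for endocytosis, 3 rose and 1 fell in resistant 786-O, and 3 rose in resistant over parental A498. NEURL1B rose from 5.36 to 11.6 CPM in resistant 786-O (1.12, SE 0.16, edgeR adjusted p = 1.7e-05), and MIB2 from 16.0 to 32.1 CPM in resistant over parental A498 (1.00, SE 0.17, edgeR adjusted p = 6.8e-05). Of the 4 other ligands, DLL4 and DLK1 did not pass the filter, and DLL3, an inhibitory ligand, was higher in resistant 786-O and lower in resistant A498 than in parental A498. Its counts were 2, 3 and 2 in parental 786-O, 35, 52 and 38 in resistant 786-O, 133, 93 and 87 in parental A498 and 9, 10 and 13 in resistant A498. In CPM, parental A498 was highest, resistant 786-O next and parental 786-O lowest, and no group overlapped another.

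Genes that glycosylate or mature the receptors split. Of 6, 3 rose and 2 fell in resistant 786-O, a balance that turned with the GC and length trend removed, and 4 rose and 1 fell in resistant over parental A498. MFNG, a Fringe glycosyltransferase that tunes the response to Jagged and Delta ligands, fell from 23.3 to 5.94 CPM in resistant 786-O (-1.96, SE 0.21, edgeR adjusted p = 1.1e-06), with resistant 786-O replicate 2 lowest at 3.07 CPM. LFNG, a second Fringe, had 28.3 to 32.4 CPM in parental A498, 133 to 137 in resistant A498 and 179 to 190 in parental 786-O. It was higher in resistant A498 than in parental A498 by 2.16 (SE 0.06, edgeR adjusted p = 7.5e-14) and lower than in parental 786-O by -0.45 (edgeR adjusted p = 2.9e-06), so the resistant A498 libraries lay nearer to parental 786-O. Of 8 genes of receptor cleavage, 4 rose and 2 fell in each resistant line over its labelled parent. The gamma-secretase subunits APH1B in resistant 786-O (0.94, from 8.55 to 16.4 CPM, edgeR adjusted p = 1.9e-08) and APH1A in resistant over parental A498 (0.78, from 146 to 251 CPM, edgeR adjusted p = 1.9e-10) changed most.

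Of 7 tested genes of receptor sorting and turnover, 1 rose and 2 fell in resistant 786-O (1 and 5 with the GC and length trend removed), and 3 rose and 4 fell in resistant over parental A498. DTX4, a Deltex ubiquitin ligase, rose from 3.60 to 23.1 CPM in resistant 786-O (2.68, SE 0.10, edgeR adjusted p = 1.3e-11). DTX2 fell from 86.7 to 28.4 CPM in resistant over parental A498 (-1.61, SE 0.08, edgeR adjusted p = 6.3e-11). DTX1, itself a Notch target in lymphocytes, had 157 counts over the parental A498 libraries and 0 over those of resistant A498, a fold of at least 46.1 when resistant A498 is set to a floor of 3 counts over the group. In parental 786-O and resistant 786-O it had 0 to 3 counts per library. DTX1 thus passed the filter on low counts only through parental A498, and its call as lower is tied to that.

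The nuclear genes differed in direction between lines. RBPJ, which recruits the Notch complex to DNA, had 92.5, 101 and 99.3 CPM in parental 786-O and 54.6, 54.5 and 48.3 CPM in resistant 786-O. It had 47.6, 47.3 and 47.1 CPM in parental A498 and 80.3, 79.4 and 84.0 CPM in resistant A498. RBPJ fell by 0.89 on the log2 scale in resistant over parental 786-O (SE 0.05, edgeR adjusted p = 2.1e-09) and by 0.26 in resistant A498 over parental 786-O (edgeR adjusted p = 0.00064), and rose by 0.78 in resistant over parental A498 (SE 0.06, edgeR adjusted p = 7.4e-09), or by 0.45 with the GC and length trend removed. Of the 8 genes of the activation complex, 2 rose and 3 fell in resistant 786-O, and 3 rose and 3 fell in resistant over parental A498, where the acetyltransferase KAT2B rose most (1.22, from 8.93 to 20.8 CPM, edgeR adjusted p = 2.3e-09). Of 10 corepressors, 3 rose and 5 fell in resistant 786-O, with the deacetylase HDAC1 at -0.81 (from 198 to 113 CPM, edgeR adjusted p = 3.9e-10). In resistant over parental A498, 4 rose and 2 fell, with the Groucho-type TLE3 at -1.45 (from 41.8 to 15.3 CPM, edgeR adjusted p = 5.8e-08).

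Of 7 other HES and HEY genes, 5 passed the filter, and in resistant over parental 786-O 4 of these were higher (HES4, HES6, HES7 and HEY2) and 0 lower. HEY2 had 0, 0 and 1 counts in parental 786-O and 11, 8 and 15 in resistant 786-O. HES6, which antagonises HES1 in neural cells, had 12.99, 11.7 and 10.9 CPM in parental 786-O and 39.8, 28.3 and 42.2 CPM in resistant 786-O (1.63, SE 0.12, edgeR adjusted p = 1.3e-08, or 0.98 with the GC and length trend removed). HES4 had 14.8, 13.5 and 12.2 CPM in parental 786-O and 30.8, 36.6 and 34.6 CPM in resistant 786-O (1.33, edgeR adjusted p = 3.9e-08), which the removal brought to 0.43 (edgeR adjusted p = 0.0013). In resistant over parental A498, HES4 rose by 2.53 (SE 0.14, from 3.31 to 19.3 CPM, edgeR adjusted p = 2.2e-10) and HES6 by 1.00 (CPM 11.8 to 23.6, edgeR adjusted p = 4e-06), and 1 gene, HEYL, was lower, with 76 counts over the parental A498 libraries and 0 over those of resistant A498, a fold of at least 22.3 at the same floor. Like DTX1, HEYL passed the filter only through parental A498, so that call is tied to the filter.

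Of 5 further genes known to respond to Notch in other cells, 2 rose and 2 fell in resistant 786-O, and 2 rose and 3 fell in resistant over parental A498. The hyaluronan receptor CD44 fell in both, from 862 to 512 CPM in resistant 786-O (-0.75, SE 0.07, edgeR adjusted p = 3.9e-07) and from 1215 to 375 CPM in resistant A498 (-1.70, edgeR adjusted p = 3e-11). SNAI2, a repressor of epithelial genes, rose in resistant over parental A498 from 9.43 to 34.0 CPM (1.85, SE 0.18, edgeR adjusted p = 2e-07), and differed by -0.05 from parental 786-O (95% interval -0.39 to 0.28). An antisense gene of CD44 held 7.74% of the CD44 counts.

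**Figure D5:**
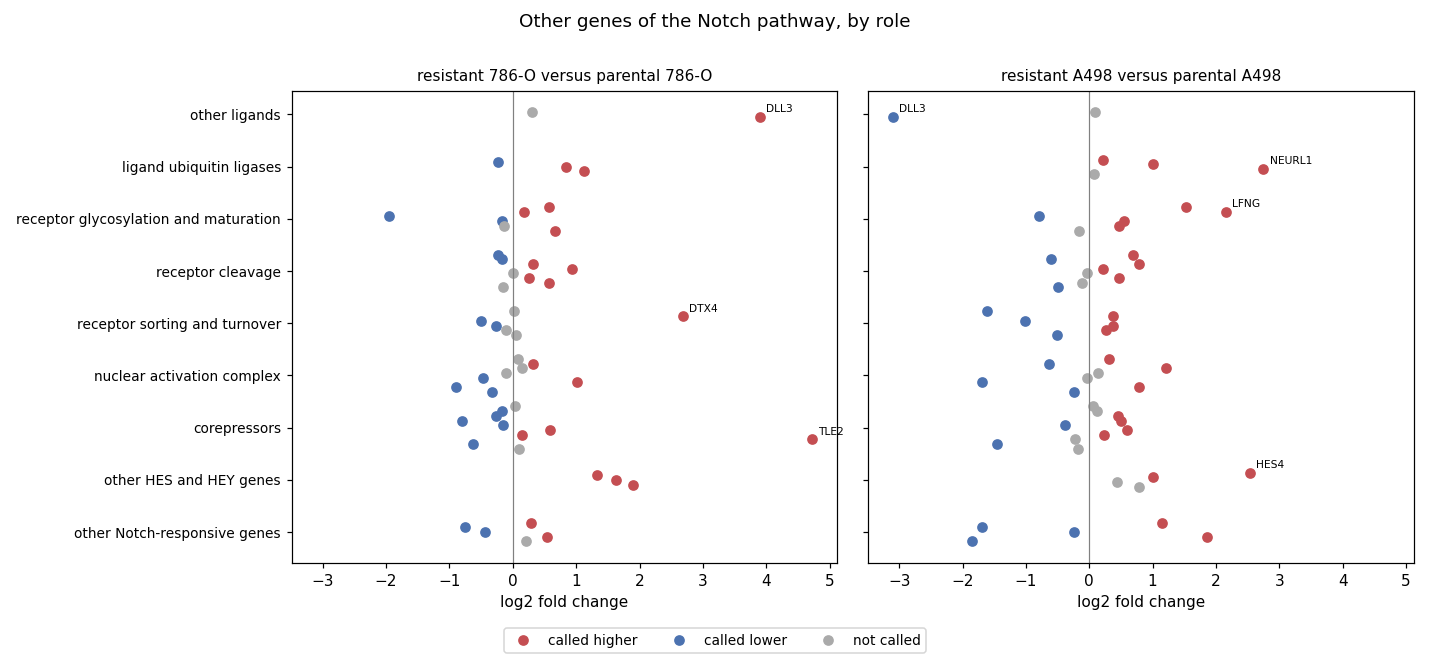
Log2 fold change (horizontal axis) of the other Notch pathway genes by role (rows) in resistant over parental 786-O (left, 51 genes) and resistant over parental A498 (right, 53 genes), red for called higher, blue for called lower and grey for not called. Genes with no more than 3 counts in a compared group are left out (DTX1, HEY2, HEYL and NEURL1 on the left, DTX1 and HEYL on the right, where both were called lower). The plotted genes of the HES and HEY row lie to the right of 0 in both panels, and the nuclear, cleavage and corepressor rows lie on both sides.

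Genes whose pattern over the 12 libraries was most like that of a Notch gene were sought among 11110 genes of at least 10 CPM in a group, as a description by Pearson's r of log2 CPM, in which the 4 groups and their batch labels are shared by all points. NOTCH1 was followed most closely by SLC2A8 (r = 0.992) and GAS6 (0.988). JAG2 was closest to ABCA7 (0.982) and TCIRG1 (0.98), and HES1 to TMEM128 (0.983) and PECR (0.98). JAG1, which hardly varied, had no neighbour above 0.88 (PVR, with SP140L at 0.878).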

How the data were processed

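Gene counts were analysed for 12 mRNA libraries of 4 groups, assigned by their GEO labels. The authors deposited raw counts per gene, which per the paper's methods and the submitters' processing notes were made with bcl2fastq 2.19.0, Trimmomatic 0.36.6, HISAT2 2.1.0 on GRCh38/hg38 and featureCounts 1.6.3 over GENCODE exons, in a strand-specific mode. The kit was stranded, and the strand setting given was not checked here beyond the antisense shares. A newer GENCODE release of the same build gave positions, lengths and GC content, so a few gene models may differ. The libraries were run on instruments of more than 1 kind, not named per library.

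Counts were normalized by TMM, filtered with filterByExpr and fitted over all 12 libraries with edgeR 4.0.16 (R 4.3.3, limma 3.58.1) quasi-likelihood models across 19929 genes, with 7 comparisons and Benjamini-Hochberg adjustment within each. Log2 fold changes use a prior count of 0.125, and CPM values use TMM-normalized library sizes. Ratios of counts have exact conditional binomial 95% intervals, which cover counting error only. Bounds against groups at 0 use a floor of 3 counts over the group. Depth was 20042519 to 47972092 counts, median 37898338. Alternatives were other scalings, filters, DESeq2 1.42.0, counts thinned to the smallest library, only the groups compared, a per-gene test of raw counts after the study's methods, a replicate block and leaving out each library. Offsets that remove each library's trend with GC content and length were added after seeing the data. In simulated data for resistant over parental 786-O, 156 of 200 genes changed 2-fold were called and 14 unchanged ones, among 19205 genes. Far fewer genes changed there than the 68.5% called in the data, so the simulation checks the code and does not give the error rate or power here. Pairing by replicate number was not apparent. Correlations of same-numbered deviations were -0.197 to 0.211 over all comparisons, and in none were all 3 pairs above 0.1. With 3 libraries per group this check cannot exclude pairing. The members and gene lists were chosen with earlier results of these data known. Named were all members, per list and labelled line the called pathway gene with the largest change and a mean of at least 5 CPM, and per member of at least 5 CPM the 2 most correlated genes of at least 10 CPM in a group, of which those of NOTCH2 are not reported here. Tables and figures used Python 3.11.15, pandas 2.3.3 and matplotlib 3.10.9. Sequences are from RefSeq.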

Additional observations from a re-analysis of the deposited data

Results flagged for a closer look

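For 5 genes the change with resistance differed between the labelled lines by a test of the difference itself in the edgeR model, given as the log2 fold change of resistant over parental A498 minus that of resistant over parental 786-O. HES1 had a difference of 1.25 (adjusted p = 3.5e-05), from changes of 1.33 and 0.08. JAG2 had a difference of -1.44 (adjusted p = 3.5e-05), from changes of 0.26 and 1.70, and NRARP one of -2.03 (adjusted p = 0.0019), from changes of -0.14 and 1.89.

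NOTCH3 had a difference of -7.93, which rests on groups with 0 to 2 counts per library and whose size depends on the prior count, so that only its direction is read. That direction is tied in part to the filter, which NOTCH3 passed only through parental A498. HEY1 had a difference of -0.56 (adjusted p = 0.034), which was not called with no filter (-0.512), after thinning to the smallest library (-0.48) or with the replicate block (-0.551). It was also lost on leaving out any 1 of 7 libraries, with values of -0.539 to -0.456, namely replicates 1 and 2 of parental 786-O and of resistant A498, replicates 1 and 3 of parental A498 and replicate 1 of resistant 786-O. With the GC and length trend removed the call on HEY1 was kept, at -0.759 (edgeR adjusted p = 0.0061). The libraries labelled as resistant A498 resembled 786-O more than parental A498, so the change with resistance and the difference between the parental lines cannot be told apart in these values. Groups of 3 were not tested for single outlying libraries.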

How the results depend on the processing

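Of 1334 values of the members under up to 22 alternatives, before removal of the GC and length trend, 1231 kept their direction and side of the threshold and 27 turned their direction. Members called moved by over 1.5 times as follows. With at least 10 counts in every library, 7 calls in resistant over parental 786-O became 4 and 5 calls on the difference became 3, fewer genes being tested. Requiring a log2 fold change over 1 as well left 4 in resistant over parental 786-O, 2 in resistant over parental A498, 1 in resistant A498 over parental 786-O, 1 in resistant A498 over resistant 786-O, 2 in parental 786-O over parental A498 and 3 in resistant 786-O over parental A498. Of the other pathway genes it left 11 of 40, 17 of 42, 11 of 40 and 20 of 41 in the first 3 of these and between the parental lines. The 4 calls in resistant over parental A498 became 7 with no filter and 7 with only the groups compared, and the 5 calls between the resistant groups became 3 with the latter. The per-gene test of raw counts, unadjusted and not scaled to library size, called 2, 3, 8 and 2 members in resistant over parental A498, resistant A498 over parental 786-O, resistant A498 over resistant 786-O and between the parental lines, and 25 and 18 pathway genes in the labelled lines. Shares of all genes under these alternatives were not counted, so the counts given here show only how calls depend on the setting.

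Leaving out 1 library gave 5 to 8 members in resistant over parental 786-O, 4 to 7 in resistant over parental A498 (7 without resistant 786-O replicate 2), 4 to 7 in resistant A498 over parental 786-O, 4 to 5 between the resistant groups, 6 to 7 between the parental lines, 5 to 7 in resistant 786-O over parental A498 and 4 to 6 on the difference. Shares of all genes in these fits were not counted. For resistant 786-O over parental A498 with the GC and length trend removed, 6 members were called. Of all genes 74.7% were then called, 34.0% as higher and 40.8% as lower.

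Outside the per-gene test, directions that turned were mostly of values near 0, and the cause was not tested. The per-gene test takes raw counts without scaling to library size, so that depth enters its values. Directions it turned included those of larger values in the main fit, such as 0.52 for HES1 and 0.49 for NOTCH2 in resistant A498 over parental 786-O. In the per-gene test they were NOTCH4 -0.06 and JAG1 -0.067 in resistant over parental A498, NOTCH1 -0.568, NOTCH2 -0.251, JAG1 -0.542, HES1 -0.217 and HEY1 -0.399 in resistant A498 over parental 786-O, JAG1 -0.878, HES1 -0.474 and HEY1 -0.788 between the resistant groups, JAG1 0.475 between the parental lines and HEY1 0.242 in resistant 786-O over parental A498. NOTCH2 between the parental lines was -0.029 with library size alone, -0.001 with DESeq2's size factors, -0.001 with DESeq2's test and -0.015 with at least 10 counts. NOTCH3 in resistant A498 over parental 786-O was -0.096 after thinning, and JAG1 on the difference was 0.015 with no filter. With the GC and length trend removed, JAG1 was -0.015 and NRARP 0.068 in resistant over parental A498, NOTCH1 -0.222 in resistant A498 over parental 786-O, JAG1 -0.02 in resistant 786-O over parental A498 and NOTCH1 0.557 on the difference. Leaving out 1 library turned HES1 in resistant over parental 786-O (-0.097 to 0.187), NOTCH4 in resistant over parental A498 (-0.293 to 1.099) and between the parental lines (-1.275 to 0.117), NOTCH3 in resistant A498 over parental 786-O (-2.494 to 1.205), JAG1 and HEY1 between the resistant groups (-0.017 to 0.091 and -0.015 to 0.218) and JAG1 on the difference (-0.077 to 0.035).

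Library size alone shifted the median of all genes by 0.143 in resistant over parental 786-O and 0.151 in resistant A498 over parental 786-O, and the share of calls that were higher from 51.1% to 62.5% and from 49.6% to 62.6%. With the replicate number as a block, 7, 4, 5, 5, 6, 6 and 4 members were called in the order resistant over parental 786-O, resistant over parental A498, resistant A498 over parental 786-O, between the resistant groups, between the parental lines, resistant 786-O over parental A498 and the difference, and HEY1 on the difference was lost (-0.551, adjusted p = 0.05). No other member call changed with the block. Only the groups compared and the per-gene test gave no value for the difference. At this depth NOTCH3, NOTCH4, DLL1 and NRARP rest on the fewest counts, and small differences in them were not detectable.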
